A study of Mus musculus with 3 samples.

Results

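The 9 genes described here encode chemokine and lipid receptors that direct lymphocytes into, within and out of tissues: Cxcr5, Ccr6, Gpr183, S1pr1, Cxcr3, Cxcr4, Ccr7, Ccr9 and Ccr10. They are 9 of 16390 genes named on the array, taken by their names in the probe annotation, and each is read by 1 probe. Cxcr5, Gpr183 and S1pr1 are carried in the array's annotation under the older symbols Blr1, Ebi2 and Edg1. All cells came freshly isolated from mice carrying the IL-10 Venus reporter, whose fluorescence marks cells that transcribe the gene of the cytokine interleukin 10. The study profiled 3 sorts: Venus+ CD138hi cells from bone marrow, Venus+ CD138hi cells from spleen, and B220+ cells from spleen. CD138 (syndecan 1) is a surface proteoglycan of plasma cells, the antibody-secreting cells, and B220 is the B cell form of CD45. B220 was the only marker named for the spleen B220+ sort, and no source used here says how many mice each sort drew on. With 1 single-colour oligonucleotide array per sort, array and population cannot be told apart, and no difference below carries a replicate test.

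Chemokine receptors are G protein-coupled receptors that steer cells up gradients of small secreted proteins. Resting B cells use CXCR5 to enter follicles, CCR7 to approach the T cell zone, CCR6 and the oxysterol receptor GPR183 to place themselves within and around the follicle, and the sphingosine 1-phosphate receptor S1PR1 to leave for blood or lymph. Cells that become plasma cells change this set, and CXCR4, CXCR3, CCR9 and CCR10 are the receptors best known for bringing them to bone marrow, inflamed tissue, small intestine and mucosal epithelia.

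The sorted populations carried the genes their gates name. Sdc1, which encodes CD138, had a normalized signal of 219.5 in bone marrow Venus+ cells, 128 in spleen Venus+ cells and 2.49 in spleen B220+ cells. Il10 read 91.3 in bone marrow Venus+ cells, 88.8 in spleen Venus+ cells and 5.94 in B220+ cells. Ms4a1, the B cell surface gene encoding CD20, was at 334 in bone marrow Venus+ cells, 2619 in spleen Venus+ cells and 10149 in B220+ cells, and so was still far above the array median in the spleen Venus+ sort. A signal is the spot intensity less the mean of the blank spots, scaled so that the median of detected probes is 25 on every array. A probe was detected when its spot lay above the blank mean plus 2 SD, which held for 15857 probes in bone marrow Venus+ cells, 17239 in spleen Venus+ cells and 16917 in B220+ cells, of 23473 on each array. The ± given with a signal or log2 ratio is a spot error made from the spread of blank spots and of 24 copies of each positive control, and it covers neither biological nor hybridization differences.

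**Figure D1:**
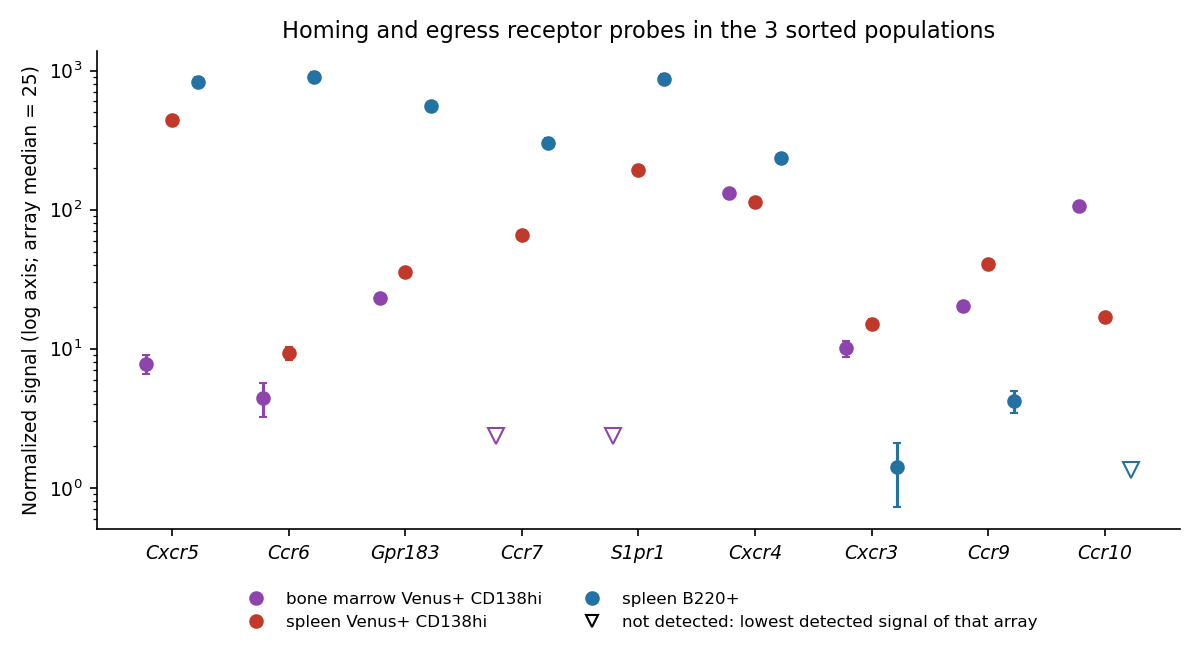
Normalized signal (log axis, array median of detected probes = 25) of the 9 receptor probes in bone marrow Venus+ CD138hi, spleen Venus+ CD138hi and spleen B220+ cells, 1 array each, with the spot error as bars where it exceeds the point. Open triangles stand at the lowest detected signal of the array for a probe that was not detected. Cxcr5, Ccr6, Gpr183, Ccr7, S1pr1 and Cxcr4 are brightest in B220+ cells, Cxcr3 and Ccr9 in spleen Venus+ cells, and Ccr10 in bone marrow Venus+ cells.

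The follicular and splenic positioning receptors had lower signals in both Venus+ populations than in B220+ cells, to very different degrees. Ccr6, the receptor for the chemokine CCL20, had a signal of 4.45 ± 1.20 in bone marrow Venus+ cells, 9.34 ± 1.02 in spleen Venus+ cells and 901 ± 68.2 in B220+ cells. It was thus bright in B220+ cells and dim in both Venus+ sorts. The log2 ratio of spleen Venus+ to B220+ cells was -6.59 ± 0.19, a 96.4-fold lower signal and the 2nd lowest ratio of the 11618 genes detected on both arrays. In bone marrow Venus+ cells it was -7.66 ± 0.40 against the same B220+ array, 202-fold lower and the 3rd lowest of 10813 genes. Between the Venus+ sorts the Ccr6 ratio of bone marrow to spleen was -1.07 ± 0.42, from signals that are dim on both arrays. The large Ccr6 ratios rest on the background used: the B220+ spot median of 1763 lay below its local background of 1832. Under normexp, a model-based background correction, with that local background the log2 ratio to B220+ cells was reversed, at 0.49 in bone marrow Venus+ cells and 0.45 in spleen Venus+ cells.

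Gpr183, the receptor for oxysterols such as 7α,25-dihydroxycholesterol, had a signal of 23.1 ± 1.68 in bone marrow Venus+ cells, 35.6 ± 2.23 in spleen Venus+ cells and 557 ± 42.1 in B220+ cells. Both Venus+ sorts were therefore near the array median, well above the detection limit, and far below the B220+ array. Relative to B220+ cells the signal was 24.1-fold lower in bone marrow Venus+ cells (log2 ratio -4.59 ± 0.15) and 15.6-fold lower in spleen Venus+ cells (log2 ratio -3.97 ± 0.14). Bone marrow against spleen Venus+ cells gave -0.62 ± 0.14, short of the 2-fold difference used as the call here.

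Cxcr5, the receptor for the follicle chemokine CXCL13, separated the Venus+ sorts from each other. Its signal was 7.78 ± 1.24 in bone marrow Venus+ cells, 445 ± 25.7 in spleen Venus+ cells and 829 ± 62.7 in B220+ cells. The 2 spleen populations thus lay within 2-fold of each other, with a log2 ratio of -0.90 ± 0.14 for Venus+ over B220+ cells (-1.13 under 2 of the 11 alternative settings, past 2-fold), and the bone marrow Venus+ cells stood far below both. Bone marrow over spleen Venus+ cells gave -5.84 ± 0.25, 57.2-fold lower, the lowest ratio of all 11352 genes detected on both Venus+ arrays. Against B220+ cells the bone marrow signal was 107-fold lower (log2 ratio -6.74 ± 0.26), the 6th lowest of 10813. In such bulk samples, fewer cells that express a gene and less RNA per cell cannot be told apart.

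Ccr7, the receptor for the T zone chemokines CCL19 and CCL21, was not detected in bone marrow Venus+ cells, and its signal was 65.3 ± 3.86 in spleen Venus+ cells and 303 ± 22.9 in B220+ cells. The raw spot in bone marrow was 42.0, against a detection limit of 43.7 on that array. Spleen Venus+ cells were 4.64-fold lower than B220+ cells (log2 ratio -2.21 ± 0.14). Taking the lowest detected signal on the bone marrow array, 2.35, as the ceiling there, Ccr7 in bone marrow Venus+ cells stood at least 129-fold under the B220+ array and at least 27.7-fold under the spleen Venus+ array. Under normexp with the scanner's local background the Ccr7 bounds were only -2.11 on the log2 scale against B220+ cells and -0.75 against spleen Venus+ cells, the second short of 2-fold.

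S1pr1, whose protein guides lymphocytes out of tissue toward the sphingosine 1-phosphate of blood and lymph, followed the same order. It was not detected in bone marrow Venus+ cells, where the spot read 41.2 against the limit of 43.7, and its signal was 194 ± 11.2 in spleen Venus+ cells and 874 ± 66.1 in B220+ cells. The signal was 4.51-fold lower in spleen Venus+ than in B220+ cells (log2 ratio -2.17 ± 0.14). In bone marrow Venus+ cells it was at least 372-fold lower than in B220+ cells and at least 82.3-fold lower than in spleen Venus+ cells. Under normexp with the scanner's local background these bounds shrank to log2 values of -1.04 against B220+ cells and -0.64 against spleen Venus+ cells, the second short of 2-fold.

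Cxcr4, the receptor for CXCL12 and the one most tied to plasma cell lodging in bone marrow, varied least. Its signal was 131 ± 6.93 in bone marrow Venus+ cells, 113 ± 6.58 in spleen Venus+ cells and 235 ± 17.8 in B220+ cells. The order of the Venus+ sorts is not settled by these values, since their log2 ratio of bone marrow to spleen was 0.21 ± 0.11. Over B220+ cells, bone marrow Venus+ cells had a log2 ratio of -0.84 ± 0.13, just short of 2-fold, and spleen Venus+ cells one of -1.06 ± 0.14, just past it. The spleen call ended under 5 of the 11 alternative settings, among them quantile normalization, where the ratio was -0.65.

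The receptors for effector sites were higher in the Venus+ sorts. Ccr10, the receptor for the epithelial chemokines CCL27 and CCL28, had a signal of 106 ± 5.63 in bone marrow Venus+ cells and 16.8 ± 1.30 in spleen Venus+ cells, and was not detected in B220+ cells, where the spot of 44.8 fell under the limit of 46.2. Its brightest array was bone marrow, 6.30-fold above spleen Venus+ cells (log2 ratio 2.66 ± 0.14) and the 18th highest of 11352 genes in that comparison. Against the lowest detected B220+ signal, 1.34, Ccr10 was at least 78.7-fold higher in bone marrow Venus+ cells and at least 12.5-fold higher in spleen Venus+ cells.

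Ccr9, the receptor for the small-intestinal and thymic chemokine CCL25, had a signal of 20.3 ± 1.58 in bone marrow Venus+ cells, 40.7 ± 2.50 in spleen Venus+ cells and 4.20 ± 0.742 in B220+ cells. Unlike Ccr10, it was brighter in the spleen Venus+ sort. Over B220+ cells it was 4.82-fold higher in bone marrow Venus+ cells (log2 ratio 2.27 ± 0.28) and 9.68-fold higher in spleen Venus+ cells (log2 ratio 3.27 ± 0.27). Bone marrow over spleen Venus+ cells gave -1.01 ± 0.14, at the 2-fold edge, and 5 of the 11 alternative settings put it short of 2-fold.

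Cxcr3, the receptor for the interferon-induced chemokines CXCL9, CXCL10 and CXCL11, had a low signal throughout: 10.1 ± 1.29 in bone marrow Venus+ cells, 15.1 ± 1.23 in spleen Venus+ cells and 1.40 ± 0.679 in B220+ cells. The B220+ spot read 46.3 against the limit of 46.2, so the denominator of its ratio is a spot at the edge of detection. The log2 ratio to B220+ cells was 2.84 ± 0.72 in bone marrow Venus+ cells and 3.42 ± 0.71 in spleen Venus+ cells, and bone marrow over spleen gave -0.58 ± 0.22. Under normexp the spleen ratio was -0.0572 with the local background and 0.61 with the blank mean as background, and the bone marrow ratio 0.04 and 0.52 in those settings.

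**Figure D2:**
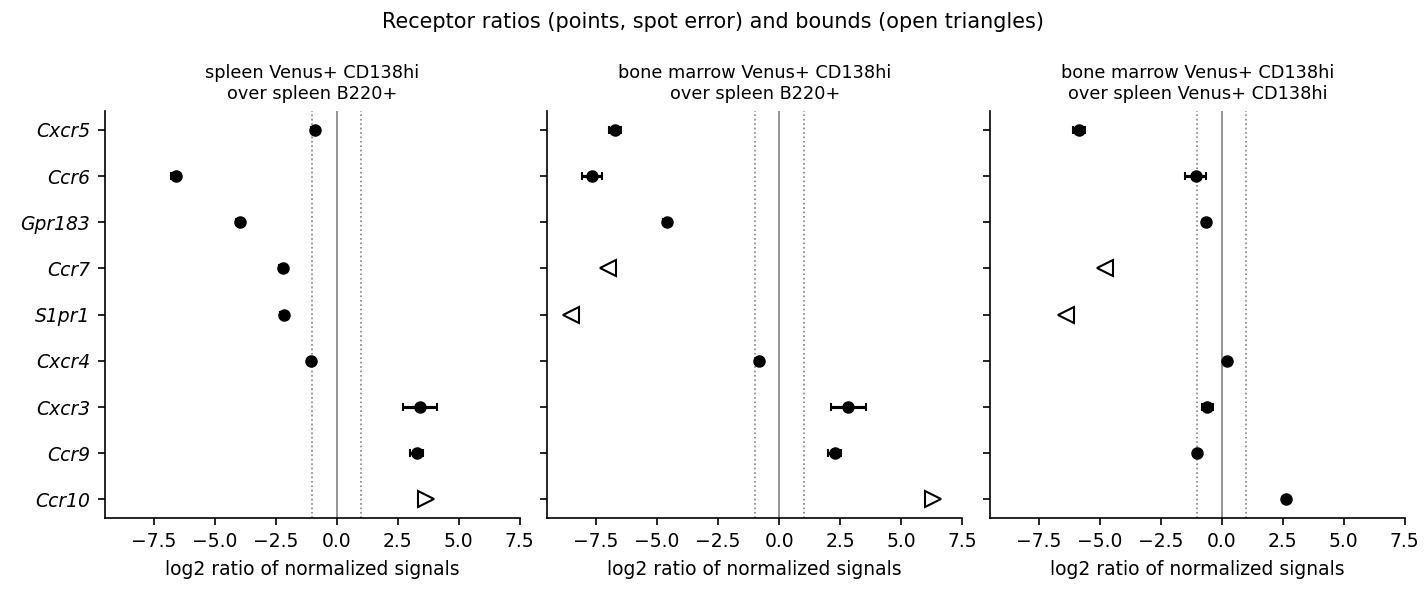
Log2 ratio of normalized signals for the 9 receptors in the 3 comparisons, with the spot error as bars and dotted lines at 2-fold. Open triangles are bounds, pointing the way the true ratio may extend, where the probe was detected on 1 of the 2 arrays. Cxcr5 sits within the dotted lines for the spleen Venus+ comparison and at -6.74 for the bone marrow one, and Ccr10 at 2.66 is the only receptor past 2-fold above zero between bone marrow and spleen Venus+ cells.

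Counted together in spleen Venus+ against B220+ cells, 8 of the 9 receptors were detected on both arrays, of which 2 (Cxcr3 and Ccr9) were at least 2-fold higher, 5 (Ccr6, Gpr183, Ccr7, S1pr1 and Cxcr4) at least 2-fold lower, and Cxcr5 lay between. Of all 11618 genes detected on both, 15.7% passed 2-fold upward and 16.5% downward. In bone marrow Venus+ against B220+ cells 6 receptors were detected on both arrays, with 2 higher, 3 lower and Cxcr4 between, where 22.4% of all genes were higher and 30.7% lower. As bounds, S1pr1 and Ccr7 were also lower and Ccr10 higher there, and with bounds included 30.1% of all genes were lower and 23.9% higher. Ccr10 was likewise higher as a bound in spleen Venus+ over B220+ cells, where 18.1% of all genes were higher and 15.9% lower with bounds included. In bone marrow against spleen Venus+ cells 7 were detected on both arrays, with Ccr10 higher, 3 (Cxcr5, Ccr6 and Ccr9) lower and 3 (Gpr183, Cxcr3 and Cxcr4) between, where 4.33% of all genes were higher and 15.2% lower. S1pr1 and Ccr7 were lower there as bounds, beside 16.1% of all genes lower and 4.49% higher with bounds included. Of the genes past 2-fold in bone marrow over spleen Venus+ cells 22.2% were higher, a share of 57.7% when the median was set over probes that every array detected. With scaling to the 75th percentile the share higher was 59.6% in place of 42.2% for bone marrow Venus+, and 70.2% in place of 48.8% for spleen Venus+, over B220+ cells. The comparisons of the Venus+ sorts with B220+ cells share the B220+ array, and any peculiarity of that array enters both. Over all genes the median log2 ratio was -0.24 for bone marrow Venus+ over B220+ cells, -0.02 for spleen Venus+ over B220+ cells and -0.17 for bone marrow over spleen Venus+ cells. Set against that last median, Ccr6 was at -0.89 and Ccr9 at -0.83, both short of 2-fold.

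**Figure D3:**
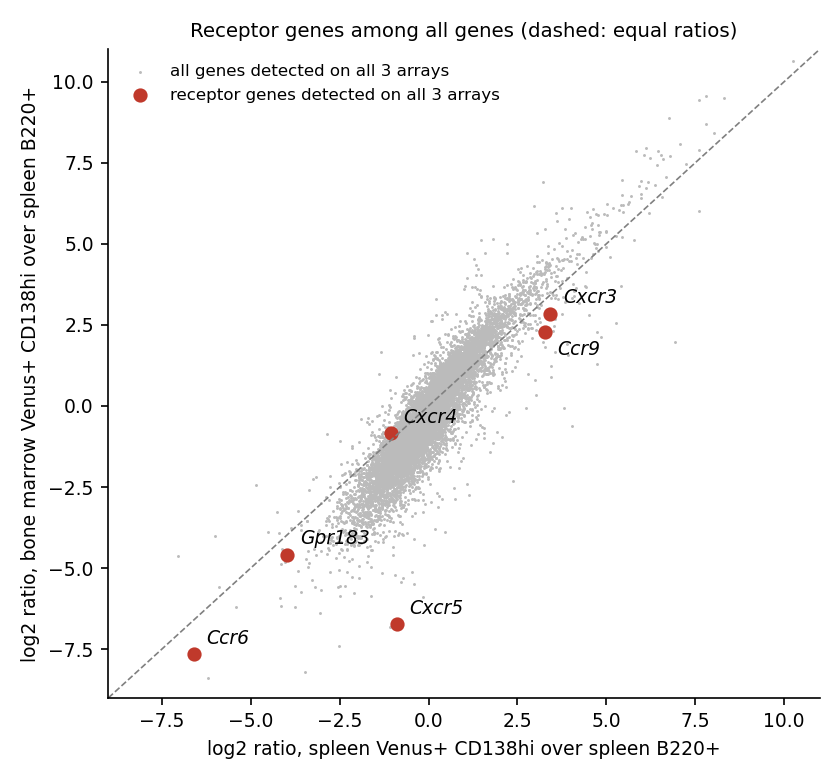
Log2 ratio of bone marrow Venus+ over B220+ cells against that of spleen Venus+ over B220+ cells for every gene detected on all 3 arrays (grey) and the 6 receptors among them (red). Both axes share the B220+ array, which draws points toward the dashed line of equal ratios. The vertical distance from that line is the log2 ratio of bone marrow over spleen Venus+ cells, which is -5.84 for Cxcr5, -1.07 for Ccr6 and -1.01 for Ccr9, and within 2-fold for Gpr183, Cxcr4 and Cxcr3.

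Genes with the pattern most like each receptor were taken as the 3 smallest distances in these log2 ratios over the 3 arrays, among 10768 genes. For Cxcr5 the nearest was Cd72, an inhibitory B cell surface protein, at a distance of 0.20, and it was the only gene within 0.5. The next were Ly86 at 1.12, which encodes the RP105 partner MD-1, and Tm6sf1 at 1.14. Ccr6 had no gene within 0.5, and its nearest was Cnn3, the actin-binding protein calponin 3, at 0.82. Gpr183 had 3 genes within 0.5, Gsn (the actin-severing protein gelsolin), Hlx and Csrp2. Cxcr3 and Ccr9 had 16 such genes each, with Trib1 and Ppp1r15a nearest, and Cxcr4 had 618. The spot errors of the Cxcr3 ratios to B220+ cells, 0.72 in bone marrow and 0.71 in spleen Venus+ cells, exceed the distance of 0.5. The genes nearest to Cxcr3 are therefore not settled.

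Promoter windows of 300 bases around annotated starts were held for 5 of the receptors in RefSeq (GRCm38.p6), and they are shown for the 4 of these whose ratios to B220+ cells were farthest from 0. Capitals mark GTGAAA or its reverse complement TTTCAC, the core shared by elements bound by the plasma cell repressor Blimp1 and by interferon regulatory factors, and ACGTG or its reverse complement CACGT, the core of the element bound by Xbp1. Ccr6 has 2 starts, with windows at chr17:8235793-8236092 and chr17:8242276-8242575 on the plus strand. The Gpr183 window is chr14:121965144-121965443 on the minus strand, that of Cxcr3 is chrX:101734098-101734397 on the minus strand, and that of Ccr9, which holds neither core, is chr9:123766961-123767260 on the plus strand.
Ccr6, upstream start: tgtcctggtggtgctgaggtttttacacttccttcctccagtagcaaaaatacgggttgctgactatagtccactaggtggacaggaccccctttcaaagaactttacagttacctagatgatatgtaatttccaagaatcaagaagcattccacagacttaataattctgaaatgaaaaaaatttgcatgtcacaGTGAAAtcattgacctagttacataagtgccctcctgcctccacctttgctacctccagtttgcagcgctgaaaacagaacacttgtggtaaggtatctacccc
Ccr6, downstream start: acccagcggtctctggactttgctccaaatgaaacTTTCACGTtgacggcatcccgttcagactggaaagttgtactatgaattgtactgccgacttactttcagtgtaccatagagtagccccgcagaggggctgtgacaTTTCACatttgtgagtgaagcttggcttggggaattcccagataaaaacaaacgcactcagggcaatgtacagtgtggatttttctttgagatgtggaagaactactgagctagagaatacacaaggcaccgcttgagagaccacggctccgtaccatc
Gpr183: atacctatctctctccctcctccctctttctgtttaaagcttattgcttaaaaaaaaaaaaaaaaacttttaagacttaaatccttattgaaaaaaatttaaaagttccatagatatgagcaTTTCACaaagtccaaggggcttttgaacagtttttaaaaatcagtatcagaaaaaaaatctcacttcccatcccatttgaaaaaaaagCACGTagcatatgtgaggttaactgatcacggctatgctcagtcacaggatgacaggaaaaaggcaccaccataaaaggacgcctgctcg
Cxcr3: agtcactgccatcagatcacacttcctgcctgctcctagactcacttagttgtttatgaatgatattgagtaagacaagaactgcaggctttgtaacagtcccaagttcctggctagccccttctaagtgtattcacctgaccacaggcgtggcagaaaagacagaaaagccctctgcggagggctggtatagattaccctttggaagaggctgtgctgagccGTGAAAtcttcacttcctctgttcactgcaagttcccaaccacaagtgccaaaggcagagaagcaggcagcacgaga
Ccr9: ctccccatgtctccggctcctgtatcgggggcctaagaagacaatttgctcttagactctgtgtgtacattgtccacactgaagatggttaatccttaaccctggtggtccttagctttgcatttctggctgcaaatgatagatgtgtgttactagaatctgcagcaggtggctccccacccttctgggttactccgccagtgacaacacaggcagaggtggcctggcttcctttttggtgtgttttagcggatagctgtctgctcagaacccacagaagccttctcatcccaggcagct
Searched on both strands, GTGAAA was in 5 of the 6 windows of these 5 receptors and in 12.9% of all 32851 windows held. The 6 include the Cxcr4 window and both windows of Ccr6, which thus counts 2 times. ACGTG was in 2 of the 6, the downstream Ccr6 window and that of Gpr183, and in 19.6% of all. The 2 cores overlap in the downstream Ccr6 window. The longer element AGTGAAAG was in none of the 6 windows and in 1.32% of all. Runs of 10 letters ending in GAAA were also searched, and were in none of the 6 windows and in 2.72% and 3.44% of all. Also in none were another run of 10 letters (0.904% of all), a run of 7 letters (3.98%) and CAGCTG (16.3%). CAGGTG, an E-box core, was in the Cxcr3 and Ccr9 windows and in 20.2% of all. GGGTG was in 2 of the 6 and in 57.5% of all, and GGAA in all 6 and in 96% of all. A match says only that these letters are present.

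Receptors of the same family outside the 9 genes showed no common direction. Of 14 other chemokine receptors with a named probe, 7 were detected on both spleen arrays, with 3 higher and 1 lower in Venus+ than in B220+ cells. Ackr3, the atypical receptor that takes up CXCL12, had a signal of 32.6 in bone marrow Venus+ cells, 122 in spleen Venus+ cells and 10.3 in B220+ cells, and its log2 ratio to B220+ cells was 1.66 ± 0.17 in bone marrow and 3.56 ± 0.17 in spleen. Ccr2, the monocyte receptor for CCL2, was detected in B220+ cells alone, at 8.64. The median of this list relative to all genes was 0.55 for bone marrow Venus+ and 0.44 for spleen Venus+ over B220+ cells. The spleen value was slightly below 0 under 1 of the 11 alternative settings.

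Few of the receptors' own ligands were measured. Cxcl13, the ligand of CXCR5, had a signal of 36.6 in bone marrow Venus+ cells and 14.1 in spleen Venus+ cells and was not detected in B220+ cells, and was thus at least 27.3-fold higher in bone marrow Venus+ and at least 10.5-fold higher in spleen Venus+ than in B220+ cells. Cxcl12, the ligand of CXCR4, read 10.7 in bone marrow Venus+ cells and 8.16 in spleen Venus+ cells and was likewise not detected in B220+ cells. Cxcl10, a ligand of CXCR3, was at 7.95 in bone marrow Venus+ cells, 7.66 in spleen Venus+ cells and 1.96 in B220+ cells. Other ligands did not share this direction. Cxcl11, also a ligand of CXCR3, was within 2-fold, at 12.4 in bone marrow Venus+ cells, 19.8 in spleen Venus+ cells and 19.7 in B220+ cells. Ccl25, the ligand of CCR9, was detected in B220+ cells alone, at 4.56. Ccl20 and Cxcl9 were not detected on any array.

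Genes that make, degrade or sense sphingosine 1-phosphate differed in direction among themselves. Of 12 such genes detected on both spleen arrays 3 were higher and 1 lower in Venus+ than in B220+ cells, and for bone marrow Venus+ cells 1 was higher and 5 lower. S1pr4, the lymphocyte receptor of the family, had a signal of 12.5 in bone marrow Venus+ cells, 64.2 in spleen Venus+ cells and 224 in B220+ cells, the same order as S1pr1, with log2 ratios to B220+ cells of -4.16 ± 0.19 in bone marrow and -1.80 ± 0.14 in spleen. S1pr5 ran the other way, at 23.0 in bone marrow Venus+ cells, 16.3 in spleen Venus+ cells and 7.83 in B220+ cells. Cd69, whose protein pulls S1PR1 off the surface, was at 21.8 in bone marrow Venus+ cells, 64.6 in spleen Venus+ cells and 106 in B220+ cells. Sgpl1, the lyase that breaks down the ligand, had a signal of 85.5 in bone marrow Venus+ cells, 269 in spleen Venus+ cells and 114 in B220+ cells.

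The oxysterol and lipid receptor list holds ligand enzymes of Gpr183 and related orphan or lipid receptors. In spleen Venus+ cells 4 of 8 genes (Cyp27a1, Gpr18, P2ry10 and Cnr2) were lower and none higher than in B220+ cells. In bone marrow Venus+ cells 3 of 6 (Gpr18, P2ry10 and Cnr2) were lower and none higher. Cyp27a1 was not detected there, and as a bound was at least 13.1-fold lower than in B220+ cells. The enzyme genes Ch25h, Cyp7b1 and Hsd3b7 were within 2-fold in the spleen comparison. Gpr18, the nearest measured coding gene to Gpr183 on one side of it in the genome, had a signal of 384 in bone marrow Venus+ cells, 500 in spleen Venus+ cells and 1182 in B220+ cells. Its log2 ratios to B220+ cells were -1.62 in bone marrow and -1.24 in spleen Venus+ cells, and those of Tm9sf2 on the other side were 0.15 in bone marrow and 0.05 in spleen Venus+ cells. Ch25h, which makes the oxysterol precursor, was within 2-fold on all arrays, at 18.3 in bone marrow Venus+ cells, 19.3 in spleen Venus+ cells and 13.0 in B220+ cells.

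Downstream of the receptors, more genes of the signalling list were lower than higher. Of 33 genes detected on both spleen arrays 2 were higher and 11 lower in Venus+ than in B220+ cells, and of 31 in bone marrow Venus+ cells 1 was higher and 14 lower. Among all genes 15.7% were higher and 16.5% lower in the spleen comparison, and 22.4% higher and 30.7% lower in the bone marrow one, which are also the shares to set the other lists against. The median relative to all genes was -0.54 in bone marrow Venus+ and -0.37 in spleen Venus+ over B220+ cells, and the spleen value was -0.09 under normexp with the local background and -0.18 with quantile normalization. Coro1a, an actin regulator needed for lymphocyte migration, had a signal of 196 in bone marrow Venus+ cells, 1468 in spleen Venus+ cells and 3572 in B220+ cells. Gnai2, the main inhibitory G protein alpha subunit of lymphocytes, was within 2-fold on all arrays, at 598 in bone marrow Venus+ cells, 882 in spleen Venus+ cells and 1029 in B220+ cells. Rgs10, which switches such G proteins off, was higher, at 309 in bone marrow Venus+ cells, 240 in spleen Venus+ cells and 38.0 in B220+ cells. Rgs2 ran opposite, not detected in bone marrow Venus+ cells, with 61.1 in spleen Venus+ cells and 680 in B220+ cells.

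The adhesion list was split. Itgal, the alpha chain of the integrin LFA-1, had a signal of 101 in bone marrow Venus+ cells, 102 in spleen Venus+ cells and 12.3 in B220+ cells. Selplg, which encodes the P-selectin ligand, was at 319 in bone marrow Venus+ cells, 277 in spleen Venus+ cells and 59.5 in B220+ cells. Pecam1 was lower, at 3.84 in bone marrow Venus+ cells, 33.8 in spleen Venus+ cells and 149 in B220+ cells. Of 17 genes detected on both spleen arrays 4 were higher and 3 lower in Venus+ than in B220+ cells, and of 16 for bone marrow Venus+ cells 5 were higher and 7 lower.

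Of the transcription factors linked to these receptors, 4 of 24 were higher and 10 lower in spleen Venus+ than in B220+ cells, and 4 of 23 were higher and 12 lower in bone marrow Venus+ cells. Klf2, which drives S1pr1 in T cells, had a signal of 27.4 in bone marrow Venus+ cells, 56.8 in spleen Venus+ cells and 118 in B220+ cells. Foxo1, which acts upstream of Klf2 and Ccr7 in T cells, was at 36.3 in bone marrow Venus+ cells, 84.2 in spleen Venus+ cells and 302 in B220+ cells. Both thus had the order of S1pr1 and Ccr7 over a smaller range. Tbx21, the factor T-bet that drives Cxcr3 in T cells, was within 2-fold, at 146 in bone marrow Venus+ cells, 171 in spleen Venus+ cells and 268 in B220+ cells, while Cxcr3 was higher in Venus+ cells.

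**Figure D4:**
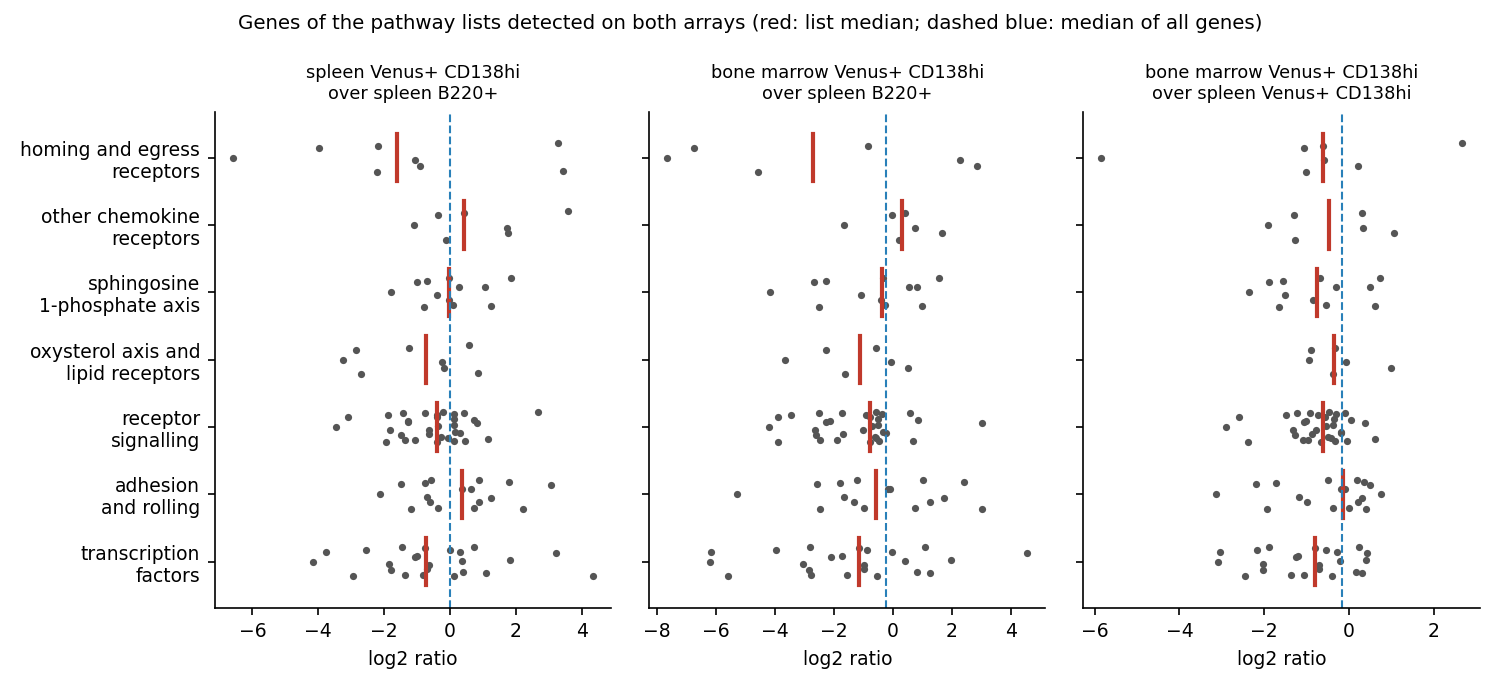
Log2 ratios of the genes detected on both arrays in the 9-receptor group and 6 related lists, with each list's median in red and the median of all genes dashed in blue, for the 3 comparisons. For spleen Venus+ over B220+ cells the receptors run from -6.59 (Ccr6) to 3.42 (Cxcr3), a wider range than any list beside them, and the transcription factor and signalling lists have medians below the dashed line in all 3.

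Markers of other cells moved between the arrays. Of 14 T cell genes with a named probe, 11 were detected on both spleen arrays and 7 of these were higher in Venus+ than in B220+ cells, with 3 more higher as bounds. In bone marrow Venus+ cells 6 of 8 were higher, with 3 more as bounds. Their summed signal was 1661 in bone marrow Venus+ cells, 1419 in spleen Venus+ cells and 62.7 in B220+ cells. In both Venus+ sorts most of that sum came from Cd247 and Cd28, so its order rests largely on these genes. Cd247 was at 1038 in bone marrow Venus+ cells, 637 in spleen Venus+ cells and 15.7 in B220+ cells. Cd28 was at 477 in bone marrow Venus+ cells, 528 in spleen Venus+ cells and 5.52 in B220+ cells. Of the defining genes, Cd3e and Cd3g were not detected in B220+ cells, and they ran opposite ways between the Venus+ sorts. Cd3e was at 17.8 in bone marrow Venus+ cells and 7.55 in spleen Venus+ cells, and Cd3g at 8.95 in bone marrow Venus+ cells and 55.7 in spleen Venus+ cells. Cd3d was detected in B220+ cells, at 7.89, and was at 24.5 in bone marrow Venus+ and 39.3 in spleen Venus+ cells, within 2-fold of each other. Between the Venus+ sorts 2 of 11 T cell genes (Cd3e and Cd8b1) were higher in bone marrow and 2 (Cd3g and Cd5) lower. The 11 neutrophil genes summed to 232 in bone marrow Venus+ cells, 42.4 in spleen Venus+ cells and 5200 in B220+ cells, and 7 of 9 were lower in bone marrow Venus+ and 5 of 5 in spleen Venus+ than in B220+ cells. Mpo went the other way, at 29.8 in bone marrow Venus+ cells and 2.22 in B220+ cells, and was not detected in spleen Venus+ cells. Most of the B220+ sum came from S100a8 and S100a9, and S100a9 was not detected in spleen Venus+ cells. The 9 B cell genes summed to 4450 in bone marrow Venus+ cells, 11280 in spleen Venus+ cells and 28730 in B220+ cells, the same order as Cxcr5, Ccr7 and S1pr1. Most of each sum came from Cd79b and Ms4a1. Pax5 was not detected in bone marrow Venus+ cells, and Cr2 was not detected in either Venus+ sort. Ms4a1, Cd79a, Cd79b, Cd22 and Pax5 had the order of the sum. Fcer2a and Ebf1 were instead higher in bone marrow than in spleen Venus+ cells, at 166 against 62.4 and 195 against 149. Blk was higher in spleen Venus+ cells (982) than in B220+ cells (718), within 2-fold. Of the B cell genes 6 of 7 were lower in bone marrow Venus+ and 7 of 8 in spleen Venus+ than in B220+ cells. Summed natural killer cell, monocyte and dendritic cell markers were at 38.5, 285 and 289 in bone marrow Venus+ cells, at 32.4, 151 and 219 in spleen Venus+ cells and at 26.1, 79.3 and 231 in B220+ cells. Most of the monocyte sum in both Venus+ sorts came from Cd68, at 241 in bone marrow and 111 in spleen, against 33.0 in B220+ cells. Bst2 was the brightest dendritic cell gene, at 213 in bone marrow Venus+, 101 in spleen Venus+ and 105 in B220+ cells. T cells can carry Cxcr3, Ccr9, Ccr7 and Cxcr5, and the part of any of these cells in the receptor signals was not tested.

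**Figure D5:**
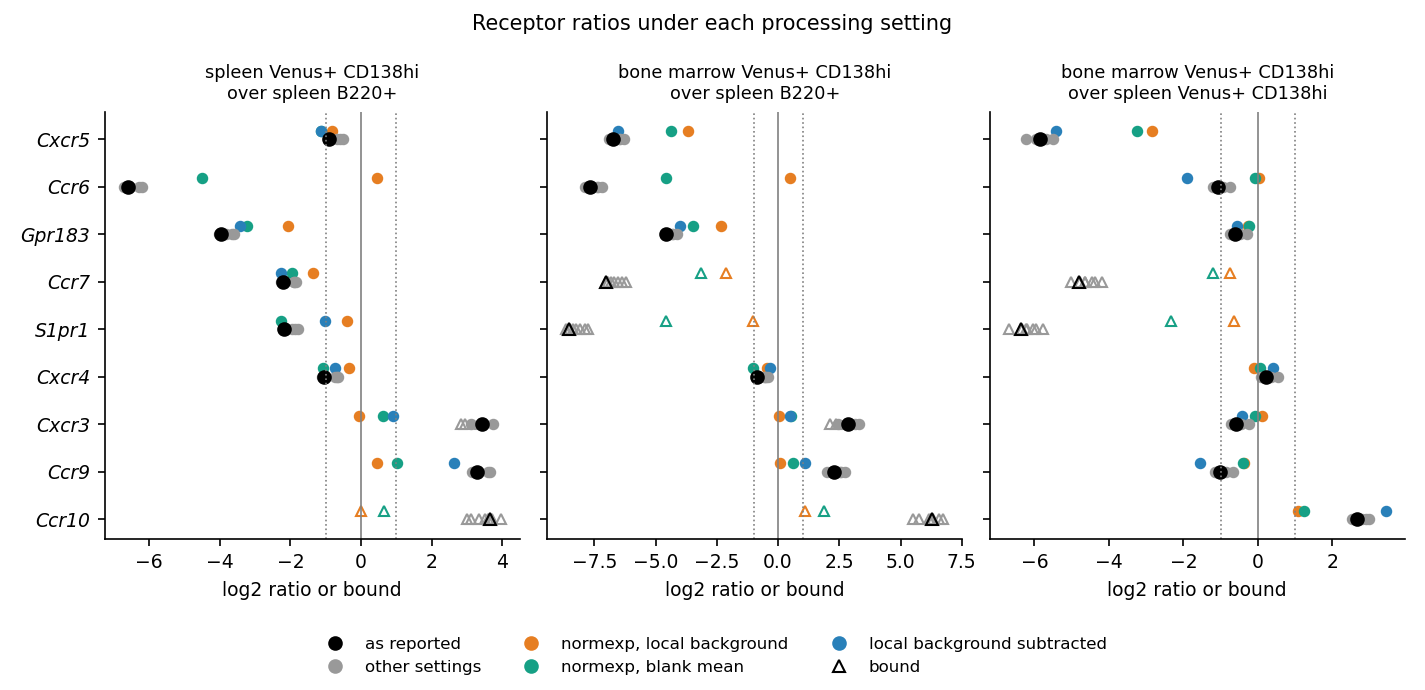
Log2 ratios (points) and bounds (open triangles) of the 9 receptors as reported and under 11 alternative settings, with dotted lines at 2-fold. Most settings fall close to the reported value, while normexp with the local background draws ratios toward 0 and turns Ccr6 to 0.45 in spleen Venus+ over B220+ cells, where Gpr183 and Cxcr5 keep their direction.

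Most of the movement between settings came with the background correction. The scanner's local background was higher around brighter spots. With the blank mean in its place as the normexp background, Ccr6 was -4.58 in bone marrow Venus+ and -4.51 in spleen Venus+ over B220+ cells. Under normexp with the local background Ccr9 was 0.09 in bone marrow Venus+ and 0.47 in spleen Venus+ over B220+ cells, S1pr1 was -0.40 in spleen Venus+ over B220+ cells, and the Ccr10 bound in spleen Venus+ cells shrank to 0.01 on the log2 scale. Gpr183 in both comparisons with B220+ cells, Ccr7 in both, and Cxcr5 and Ccr10 in bone marrow against spleen Venus+ cells were on the same side of 2-fold under every alternative setting that gave a value.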

How the data were processed

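The study measured RNA of 3 sorted populations, 1 Toray 3D-Gene mouse array each. The deposited scanner files give the median spot intensity and local background of each spot, per the file headers. As the design text of the series states, blank-spot background was removed by the authors as the mean intensity of the blank spots, taken over a 95% interval, and detected signals were scaled to a median of 25. The authors' deposited table holds those intensity values. These were rebuilt here from the scanner files with the middle 90% of blank spots, which gave the same detection calls as the table for every probe. A probe was detected above the blank mean plus 2 SD. Ratios were taken as log2 of normalized signals, and a difference was called when both arrays detected the probe and it reached 2-fold. Where 1 array detected it, the fold is a bound against the lowest detected signal of the other array. With 1 array per population no test was run, and precision is limited by the 3 arrays. The spot error combines the blank SD with the coefficient of variation of the positive controls. That coefficient was 5.21% in bone marrow Venus+, 5.77% in spleen Venus+ and 7.57% in B220+ cells. The computation of ratios and calls, but not of the spot error, was tested on simulated data with known fold changes. Genes were represented by their brightest probe. Of 23473 probes 16631 had 1 symbol and 6842 had none, and symbols were brought up to date through RefSeq synonyms. All 9 receptors were described, with the list genes named as examples of each list, the 3 nearest genes to each receptor, and the sort genes. The receptors and the lists were chosen with earlier results of these data known. Background correction, detection limit, blank window, scaling, quantile normalization, probe averaging, the authors' table and the fold threshold were varied. One alternative, normexp with the blank mean as background, was chosen after seeing the data. Tools were Python 3.11.15 with numpy 2.4.6 and pandas 2.3.3, and R 4.3.3 with limma 3.58.1.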

Additional observations from a re-analysis of the deposited data

How the results depend on the processing

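Of 289 receptor ratios and bounds recomputed under 11 settings, 35 fell on the other side of 2-fold or changed sign within it. Of these 35, 15 were under normexp with the local background and 8 under normexp with the blank mean. No value could be had for 8 more, all with the local background subtracted. Of the values past 2-fold as reported, reversals occurred under normexp with the local background alone. There Ccr6 was 0.49 for bone marrow Venus+ over B220+, 0.45 for spleen Venus+ over B220+ and 0.0373 for bone marrow over spleen Venus+ cells. Cxcr3 was -0.0572 there for spleen Venus+ over B220+ cells. In bone marrow over spleen Venus+ cells, Cxcr4 also changed sign, to -0.09 at its lowest, and Cxcr3 to 0.10 at its highest. Both stayed within 2-fold under every setting. In spleen Venus+ over B220+ cells the count of higher receptors, 2 as reported, was 0 under normexp with the local background and 1 under normexp with the blank mean, local background subtraction, both other detection limits and the 95% blank window, and the count of lower ones, 5 as reported, was 2 under normexp with the local background. In bone marrow Venus+ over B220+ cells the count of higher receptors, 2 as reported, was 0 under both normexp settings and 1 under local background subtraction, both other detection limits and the 95% window. In bone marrow over spleen Venus+ cells the count of lower receptors, 3 as reported, was 1 under both normexp settings, scaling to common probes, scaling to the 75th percentile and a 3-fold threshold. Under both other detection limits and the 95% window, the Cxcr3 ratios to B220+ cells became bounds, still past 2-fold, which the counts of higher receptors leave out. The cause of the other changes was not tested. The settings moved the median log2 ratio of all genes by up to 0.45. Dim signals limit the precision, as with Cxcr3 in B220+ cells and Ccr6 in bone marrow Venus+ cells. No paired analysis was possible because each population has 1 array.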
